A study of Mus musculus with 37 samples.

Results

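Small RNAs were sequenced from whole blood of C57BL/6 mice of the learning group at 15 months of age (5 libraries) and compared with those at 12 months (9 libraries). These 14 of the 37 libraries of the series were taken by the age and the library name in their labels, with no measured value used in the choice. According to the study's methods the mice were males from a commercial breeder, housed singly and trained in the water maze, a pool in which a mouse learns where a hidden platform lies. Blood came from the retro-orbital sinus under isoflurane. The methods place the 12-month draw before any behavioural experiment, and the 15-month draw 1 day after a probe test, after earlier training and earlier draws. A figure legend of the study instead puts every draw at the end of a maze procedure, so whether the mice were untrained at 12 months is not settled by these sources. Age, training and repeated bleeding therefore cannot be told apart in this comparison. The labels do not say which libraries came from the same mouse, so p-values measure only the spread between libraries.

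MicroRNAs are short RNAs that guide Argonaute proteins to messenger RNAs, and a target is recognised mainly through the seed, bases 2 to 8 from the 5′ end. MicroRNAs with the same seed form a family with largely shared targets. In whole blood most microRNA comes from red cells, which keep miR-486, miR-451a and miR-16 after they lose their nucleus, and smaller shares come from granulocytes, monocytes, lymphocytes and platelets. The question was how large a difference these 5 libraries showed against 12 months, which microRNAs stayed level, and how small a difference such a comparison could have shown.

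Mature sequences are from RefSeq (build GRCm38.p6), which gave one for 73 of the 87 microRNAs tested. They are written 5′ to 3′ with the seed in capitals. The first set holds microRNAs with the smallest p-values in the comparison and the closest relatives of these, because shared seeds and near-identical copies bear on how the values are read.
miR-103-3p: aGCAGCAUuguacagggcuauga
miR-107-3p: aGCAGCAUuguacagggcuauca
miR-16-5p: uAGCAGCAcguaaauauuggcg
miR-15a-5p: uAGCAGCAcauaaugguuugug
miR-15b-5p: uAGCAGCAcaucaugguuuaca
miR-93-5p: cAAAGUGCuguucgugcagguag
miR-25-3p: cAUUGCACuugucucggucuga
miR-92a-3p: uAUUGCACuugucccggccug
miR-182-5p: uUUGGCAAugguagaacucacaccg
miR-22-3p: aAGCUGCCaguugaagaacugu
The second set holds 3 of the microRNAs that stayed level, with narrow intervals.
miR-425-5p: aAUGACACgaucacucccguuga
miR-378c: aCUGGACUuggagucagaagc
miR-140-3p: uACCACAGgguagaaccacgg
miR-103-3p and miR-107-3p differ at 1 base (G22C, counted from the 5′ end, miR-103-3p first), so a read that stops before that base belongs to either. Their seed shares the run GCAGCA with that of miR-15 and miR-16, shifted by 1 base.

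Summed over the first row of each microRNA, libraries held 2619533 to 8717337 counts at 12 months (median 7057214), and those at 15 months were deeper, with 5080826 to 20268095 (median 10038537). Most of it was miR-486a-5p and miR-486b-5p, whose counts were identical in all 37 libraries, so that the same reads stand in both rows. Outside miR-486, 140292 to 726553 counts remained at 12 months and 150316 to 1115965 at 15 months. The difference of 0.15 on the log2 scale did not pass an exact permutation test (two-sided, p = 0.76). Total counts were higher at 15 months by 0.85 on the log2 scale (same test, p = 0.035). With the reads of miR-486 counted once rather than in both rows, the share of counts outside it averaged 13.2% ± 4.09 over the 9 younger libraries and 8.20% ± 1.81 over the 5 older ones (SD; exact permutation test, two-sided, p = 0.018). The 5 shares at 15 months were 5.75%, 9.18%, 7.19%, 10.4% and 8.46%, against 6.97% to 20.4% (median 12.9%) at 12 months, so the ages overlapped. Libraries 1 and 3 at 15 months stood apart from the other three in several abundant microRNAs, and had the lowest shares of their age. Levels below are in CPM, read counts brought to a common library total, scaled by TMM, a method that sets the bulk of microRNAs equal between libraries. Scaled CPM of a library need not add up to their nominal total.

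Of the 1915 mature microRNAs in the count table, 87 passed a filter that asked for over 100 reads in 50% or more of all 37 libraries. edgeR's quasi-likelihood test of 15 against 12 months left none of them (0.0%) with an adjusted p under 0.05. At an unadjusted p under 0.05 there were 16 (18.4%), with 4 (4.6%) on the higher and 12 (13.8%) on the lower side. DESeq2 gave 8 with an adjusted p under 0.05. There were 7 microRNAs just outside the threshold, with adjusted p between 0.0513 and 0.0522, and the next was miR-22-3p at 0.0659. All 5 libraries at 15 months lay on the same side of the 12-month median for 13 of these 16 microRNAs, and for 27 (31.0%) of the 87. All 87 log2 fold changes lay between -1 and 1, and 71 were smaller than 1.5-fold. Their median was 0.05, with 45 above 0 and 42 below. Only miR-103-3p and miR-151-3p (2.3% of those tested) had no overlap between the ages, the former lying lower at 15 months (1.15%) and the latter higher (1.15%).

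**Figure D1:**
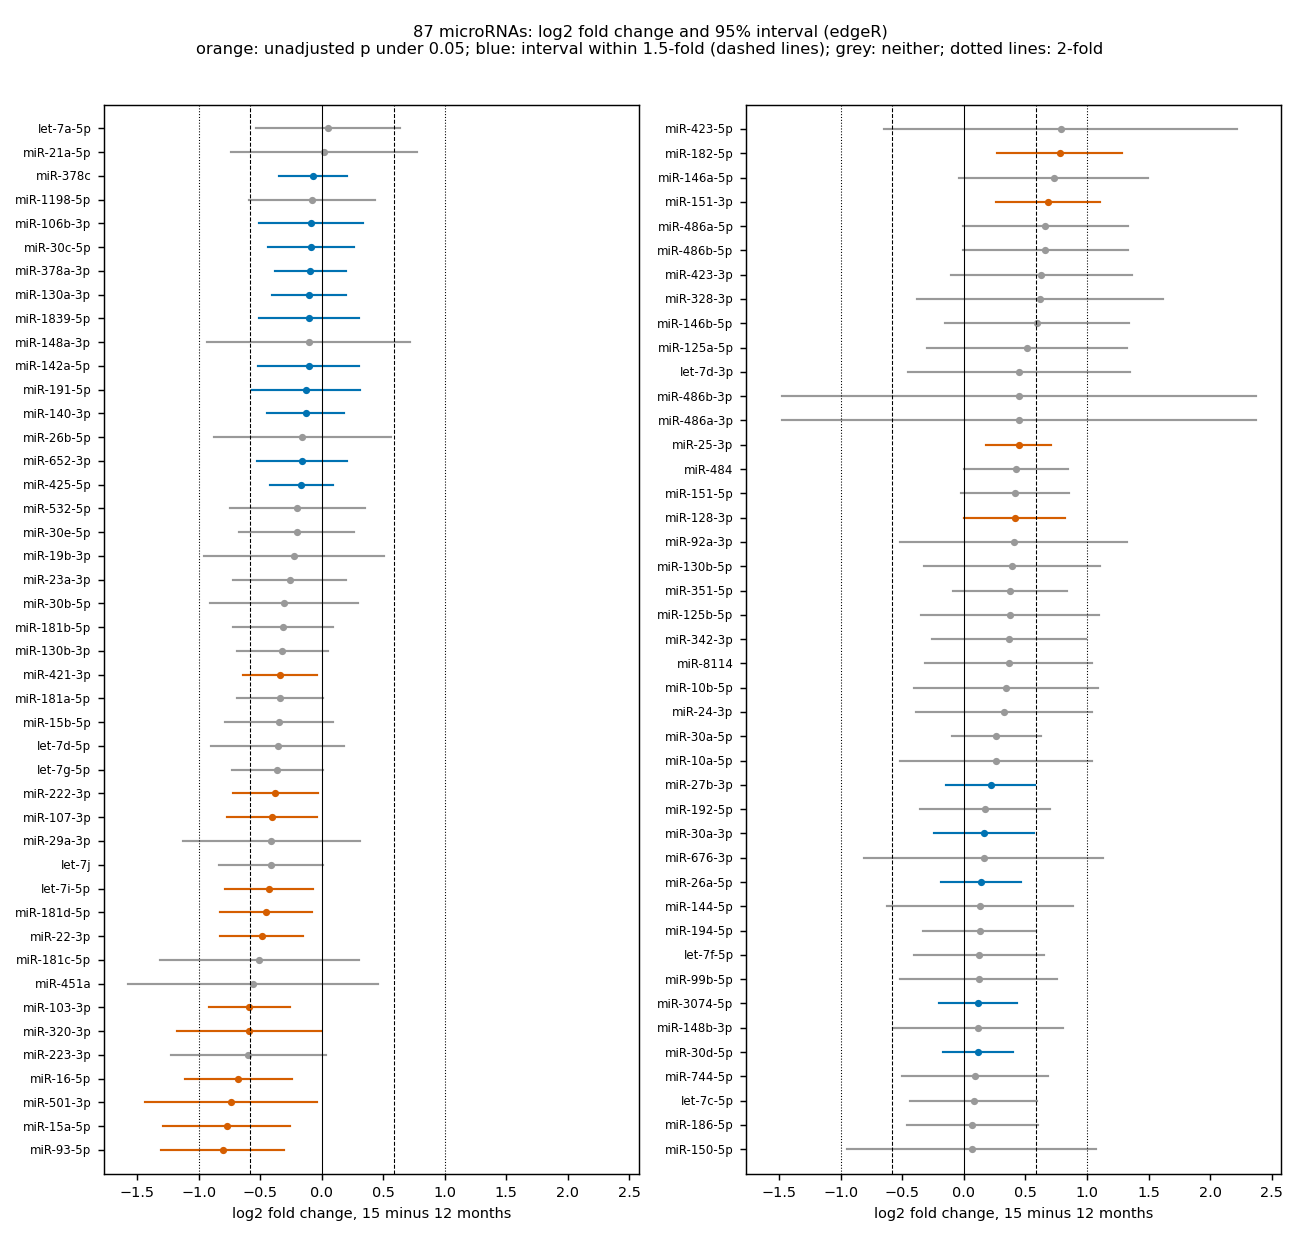
Log2 fold change at 15 minus 12 months (horizontal axis) with its 95% interval for each of the 87 microRNAs (rows), from edgeR on TMM-scaled counts. Orange marks the 16 with an unadjusted p under 0.05, blue the 16 whose interval stays within 1.5-fold (dashed lines) and grey the other 55, and under total-count scaling the 4 orange values above 0 turn negative.

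Among the 12 with lower fitted levels, 4 carried the seed AGCAGCA or GCAGCAU. The 12 kept that direction under all 5 scalings tried, but the scalings tested it little. Total-count scaling moved the median of all tested microRNAs by -0.71, and only RLE scaling moved it up, by 0.04. Values already below 0 could therefore hardly turn. With the shift of -0.71 taken out, the 12 lay from -0.74 to -0.26 under the total count. miR-103-3p, a regulator of lipid and glucose metabolism, is made from precursors in introns of Pank3 (GRCm38, chromosome 11, 35782396 to 35782481) and Pank2 (chromosome 2, 131288052 to 131288137). It had 113, 136, 96.3, 144 and 117 CPM in the 5 libraries at 15 months, against 150.0 to 205 CPM (median 188) at 12 months. Every library at 15 months lay below every library at 12 months. Its log2 fold change was -0.59 (SE 0.16, 95% interval -0.92 to -0.26, adjusted p = 0.0513). Its paralog miR-107-3p, from an intron of Pank1 (chromosome 19, 34820687 to 34820773), had 63.7, 53.3, 42.3, 59.5 and 49.2 CPM at 15 months and 53.4 to 86.3 CPM (median 69.2) at 12 months. All 5 libraries were below the 12-month median, but the ages overlapped (log2 fold change -0.40, SE 0.18, adjusted p = 0.215).

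miR-15a-5p and miR-16-5p are known as repressors of cell cycle and survival genes, and miR-16-5p is also abundant in red cells. Their precursors Mir15a (chromosome 14, 61632027 to 61632110) and Mir16-1 (61631880 to 61631972) lie 54 bases apart inside Dleu2, and Mir16-2 (chromosome 3, 69009902 to 69009996) lies beside Mir15b in an intron of Smc4. miR-16-5p had 2742, 3951, 3158, 4732 and 4119.7 CPM at 15 months and 3880.4 to 7710.3 CPM (median 6245) at 12 months. For miR-15a-5p the values were 17.9, 35.0, 26.5, 47.3 and 46.1 CPM at 15 months, against 41.8 to 85.3 CPM (median 55.1). In both cases all 5 libraries were under the 12-month median and libraries 1 and 3 were the lowest. The log2 fold changes were -0.68 (SE 0.21, adjusted p = 0.0513) for miR-16-5p and -0.77 (SE 0.25, adjusted p = 0.0522) for miR-15a-5p. With those libraries left out they were -0.49 and -0.46. The third measured relative, miR-15b-5p, had 148 ± 26.2 CPM (SD, n = 5) against 188 ± 24.4 CPM (n = 9), a log2 fold change of -0.35 with an interval from -0.79 to 0.09. Of the 6 members listed for this family, miR-195a-5p, miR-322-5p and miR-497a-5p had too few reads to be tested.

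miR-93-5p, a member of the miR-17 family of growth-promoting microRNAs, had the largest fitted difference of the 87. It had 39.1, 72.6, 47.1, 70.7 and 71.5 CPM at 15 months and 62.4 to 156 CPM (median 104) at 12 months, a log2 fold change of -0.80 (SE 0.25, 95% interval -1.30 to -0.30, adjusted p = 0.0513). The 5 libraries were all below the 12-month median, and 3 of them lay within the 12-month range. Libraries 1 and 3 were again the lowest, and without them the value was -0.56. miR-22-3p, abundant in heart and blood, had 3393, 2896, 2879, 3532 and 3063 CPM against 2918 to 6277 CPM (median 4394). It was below the 12-month median in 5 of 5 libraries, with a log2 fold change of -0.49 (SE 0.17, adjusted p = 0.0659). Its precursor overlaps the host transcript Mir22hg (chromosome 11, 75463716 to 75463810).

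The other lower microRNAs had weaker evidence. let-7i-5p, one of the let-7 family that restrains growth genes, had 151, 166, 176, 216 and 166 CPM against 191 to 311 CPM (median 228). Its log2 fold change was -0.43 (SE 0.18, adjusted p = 0.181), and 4 of the 5 libraries lay under the whole 12-month range. miR-181d-5p was at 8.98 ± 1.97 CPM (SD, n = 5) against 12.4 ± 2.54 CPM (n = 9), and rested on as few as 14 reads in a library. miR-222-3p, which represses the growth factor receptor gene Kit in red cell precursors, was at 19.1 ± 3.12 CPM against 24.9 ± 4.01 CPM. For miR-421-3p the levels were 97.4 ± 9.74 and 123 ± 22.4 CPM, and for miR-501-3p, from an intron of Clcn5, they were 33.7 ± 4.74 and 56.1 ± 19.2 CPM. These 4 lay below the 12-month median in all 5 libraries, with log2 fold changes between -0.74 and -0.34 and adjusted p between 0.181 and 0.220. miR-320-3p had 81.5, 44.2, 53.2, 41.3 and 42.6 CPM against 46.7 to 133 CPM (median 64.2). Library 1 was above the 12-month median and the other four below it (log2 fold change -0.59, SE 0.29, adjusted p = 0.220), and without libraries 1 and 3 the value was -0.92.

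The 4 microRNAs with higher fitted levels were miR-25-3p, miR-151-3p, miR-182-5p and miR-128-3p, and their direction held under TMM, RLE and upper-quartile scaling but turned under scaling by the total count alone. With that scaling the median of all 87 moved by -0.71, and their log2 fold changes became -0.20, -0.02, -0.04 and -0.32. With that shift taken out they were above 0, at 0.51, 0.70, 0.67 and 0.40. miR-25-3p shares its seed with the red cell microRNA miR-92a-3p. It had 4891, 5872, 5790.2, 6028 and 5333 CPM at 15 months and 3456 to 5546 CPM (median 3934) at 12 months. All 5 were above the 12-month median, and the overlap came from library 1 at 12 months, which had the highest value of its age (log2 fold change 0.44, SE 0.13, adjusted p = 0.0513).

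miR-151-3p, made from an intron of the focal adhesion kinase gene, had 728, 493, 589, 421 and 412 CPM at 15 months. At 12 months it had 246 to 411 CPM (median 316). The ages did not overlap, but the lowest library at 15 months exceeded the highest at 12 months by under 1 CPM, and libraries 1 and 3 carried the highest values. Its log2 fold change was 0.68 (SE 0.21, 95% interval 0.26 to 1.11, adjusted p = 0.0513), and 0.42 with those libraries left out. miR-182-5p, of a cluster best known from sensory cells, had 67.8, 32.2, 29.1, 23.5 and 63.0 CPM against 14.8 to 37.1 CPM (median 24.98). Only libraries 1 and 5 lay above the 12-month range, and the log2 fold change was 0.78 (SE 0.25, adjusted p = 0.0513). miR-128-3p, abundant in neurons and also made in blood-forming cells, had 185, 135, 215, 142 and 99.5 CPM against 73.0 to 161 CPM (median 119). It was above the 12-month median in 4 of 5 libraries (log2 fold change 0.41, SE 0.20, adjusted p = 0.220), but libraries 1 and 3 were the highest and the value without them was 0.09.

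**Figure D2:**
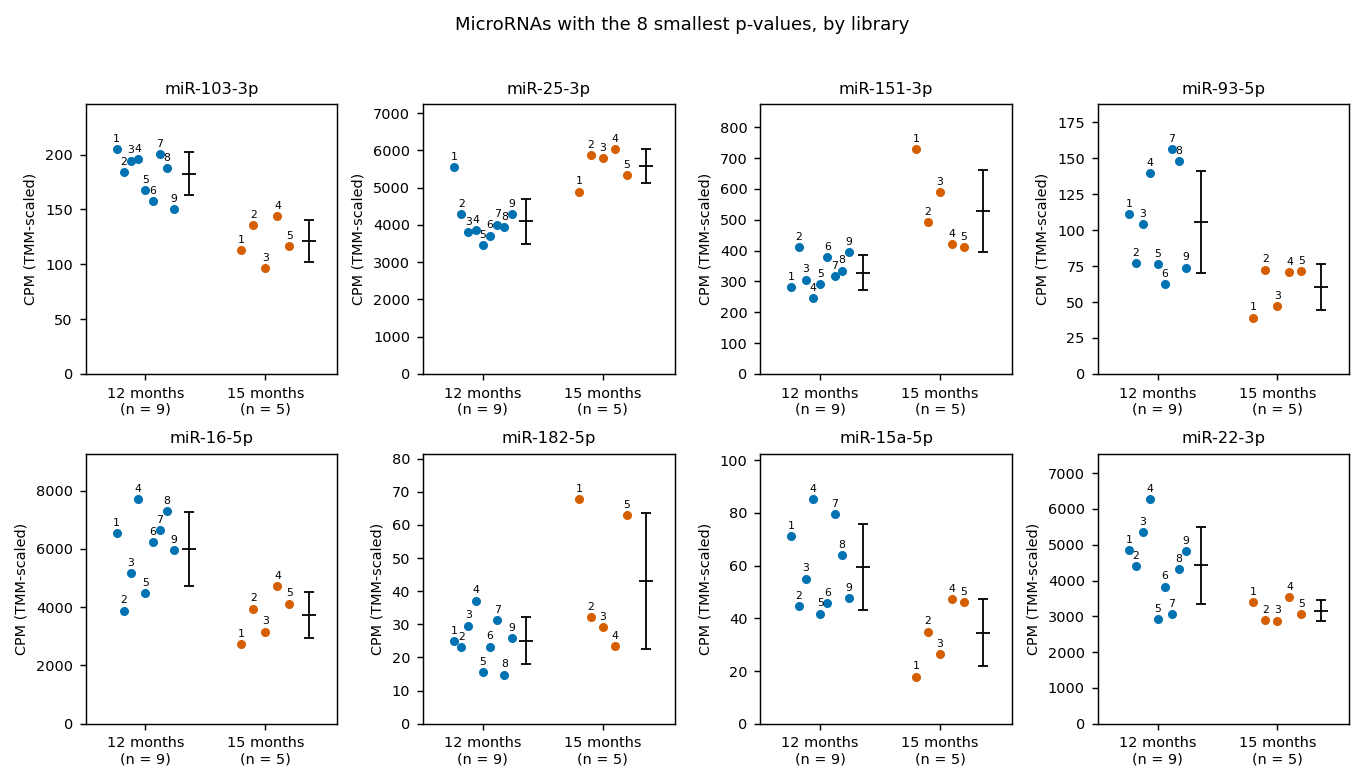
TMM-scaled CPM (vertical axis) of the 8 microRNAs with the smallest p-values in each library at 12 months (blue, n = 9) and 15 months (orange, n = 5), numbered as in the labels, with mean and SD as a bar. miR-103-3p and miR-151-3p do not overlap between the ages, and miR-25-3p, miR-151-3p and miR-182-5p lie higher at 15 months under this scaling but not under the total count.

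A ratio of 2 microRNAs within a library needs no scaling factor. Mir25 (chromosome 5, 138165321 to 138165404) and Mir93 (138165523 to 138165610) lie 118 bases apart inside Mcm7, a DNA replication gene, and are made from the same transcript. The log2 ratio of miR-25-3p to miR-93-5p was 6.96, 6.34, 6.94, 6.41 and 6.22 in the 5 libraries at 15 months, and ran from 4.68 to 5.89 (median 5.50) at 12 months. Every library at 15 months was above every library at 12 months, with means of 6.57 ± 0.35 (SD, n = 5) and 5.34 ± 0.50 (n = 9). Of 24 pairs of microRNAs from the same strand within 10000 bases, 20 from different precursors and 4 the arms of one precursor, this was the only 1 (4.17%) whose ratios did not overlap between the ages. Over all 3570 pairs of the 85 microRNAs left without the miR-486b copies, 75 (2.1%) did not overlap. The ratio was looked at after the values of both microRNAs were known, so it carries no test. The third product of the transcript, miR-106b-3p, stayed level (log2 fold change -0.09, 95% interval -0.51 to 0.33), and the ratio of miR-25-3p to it was higher by 0.50 with overlap.

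**Figure D3:**
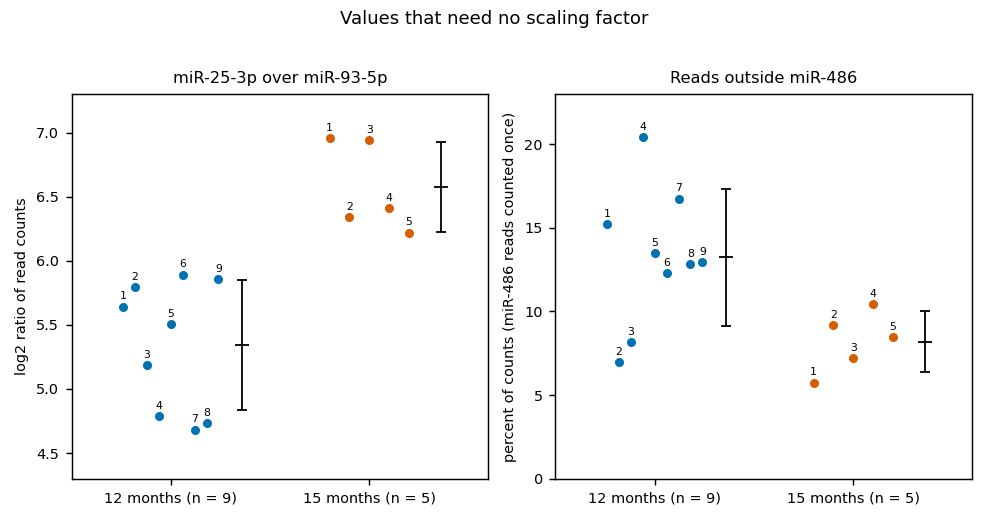
Left, log2 ratio of the read counts of miR-25-3p and miR-93-5p in each library, which is 6.22 or more at 15 months (orange, n = 5) and 5.89 or less at 12 months (blue, n = 9). Right, percent of counts outside miR-486, whose own reads are counted once, with overlapping ages, and bars for mean and SD in both panels.

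Level microRNAs were defined by an interval lying wholly within 1.5-fold, and 16 of 87 (18.4%) met this. The count rested on the scaling and the model, with 3 under the total count, 6 under the upper quartile and 36 with 1 factor for hidden confounders (RUVs). Under the total count miR-425-5p had a log2 fold change of -0.84 and miR-140-3p one of -0.81, or -0.13 and -0.10 relative to the shift of the median. At 2-fold there were 56 (64.4%), while for 31 the interval reached beyond 2-fold in at least 1 direction. The narrowest was that of miR-425-5p (chromosome 9, 108568777 to 108568861), a microRNA of blood and many tissues, with 173, 178, 151, 193 and 167 CPM at 15 months and 155 to 249.6 CPM (median 190.0) at 12 months. Its log2 fold change was -0.17 with an interval of -0.42 to 0.09, which corresponds to 0.745- to 1.07-fold. miR-378c followed, with 29.96, 28.0, 25.6, 31.7 and 29.8 CPM against 24.99 to 34.2 CPM (median 31.3), and an interval of 0.786- to 1.15-fold. Its abundant relative miR-378a-3p, known from mitochondrial metabolism, gave 0.767- to 1.14-fold, so both tested members of this family stayed level. RefSeq gave no sequence for miR-378a-3p, and whether these members share reads was not tested, so they may not be independent.

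Next in order of interval width were miR-30d-5p (1411 ± 175 CPM at 15 months against 1305 ± 173 CPM), miR-130a-3p, miR-140-3p, miR-3074-5p, miR-26a-5p, miR-30c-5p and miR-27b-3p. Their log2 fold changes lay between -0.13 and 0.22, and none of these intervals excluded 0. The other 6 level microRNAs were miR-652-3p, miR-30a-3p, miR-1839-5p, miR-142a-5p, miR-106b-3p and miR-191-5p. miR-142a-5p, made in all white cell lineages, had 2600.1 ± 379 CPM (SD, n = 5) against 2801 ± 302 CPM (n = 9). miR-191-5p, from the same host transcript as miR-425-5p, had 7332 ± 910.4 against 8023 ± 1753 CPM. In the level group the 12-month mean fell between the lowest and highest library at 15 months for 14 of 16. The remaining 55 of the 87 were neither past an unadjusted p of 0.05 nor within 1.5-fold, and for these the libraries do not tell a level microRNA from a changed one.

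The widest intervals belonged to miR-486a-3p and its copy miR-486b-3p, miR-423-5p, miR-451a, miR-150-5p and miR-328-3p. miR-486a-3p, the minor arm of the red cell microRNA, had 466, 22.0, 331, 21.7 and 16.6 CPM at 15 months and 6.72 to 377 CPM (median 52.9) at 12 months. The interval of its fold change ran from 0.358 to 5.19. miR-423-5p, a microRNA often measured in serum, had 3254, 384, 2091, 496 and 325 CPM against 161 to 2061 CPM (median 517). Libraries 1 and 3 held the 2 highest values at 15 months for both of these, and also for miR-328-3p and for the lymphocyte microRNA miR-150-5p. miR-451a, which red cells make without Dicer, went the other way, with 1380.4, 5774, 2218, 7291 and 8929.7 CPM at 15 months against 2727 to 19052 CPM (median 5918). Libraries 2, 5 and 6 at 12 months held the 3 highest values of miR-423-5p and miR-486a-3p and the 3 lowest of miR-451a at that age. The first component of the differences among libraries of the same age held 70.1% of their variance, against 9.82% for the second.

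**Figure D4:**
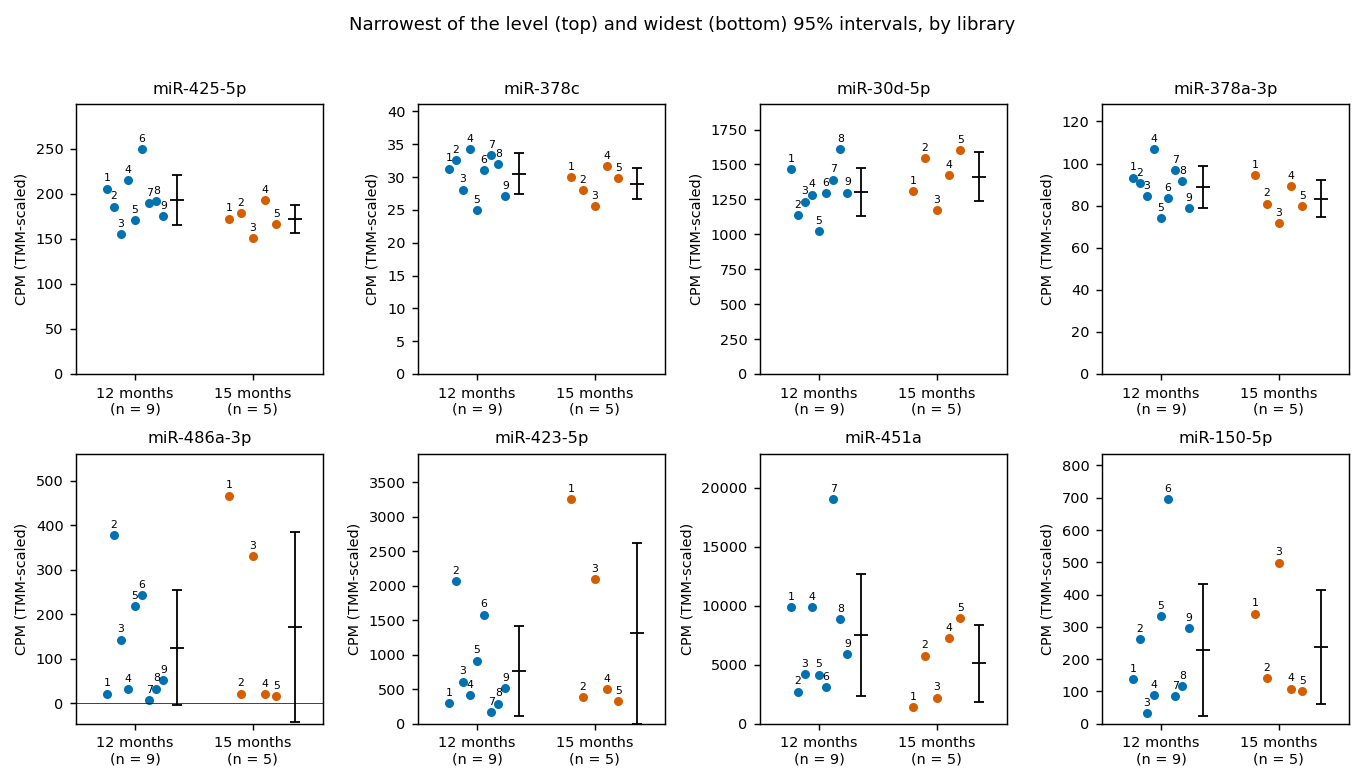
TMM-scaled CPM (vertical axis) by library, numbered as in the labels, for the 4 level microRNAs with the narrowest intervals (top) and the 4 distinct ones with the widest of all (bottom), with mean and SD as bars. Libraries 1 and 3 at 15 months sit at 331 CPM or more for miR-486a-3p and the others at 22.0 or less, while miR-425-5p stays between 151 and 193 CPM in all 5.

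The spread behind detectable sizes came from the fit of all 37 libraries at 4 ages (36.4 degrees of freedom). They are therefore not what the 14 libraries alone could show. With 5 against 9 libraries, the fold change that would pass an unadjusted p of 0.05 in 80% of repeats had a median of 1.66-fold over the 87 microRNAs, from 1.29-fold for miR-425-5p to 6.68-fold for miR-486a-3p. At the Bonferroni level for 87 tests the median was 2.26-fold. A 2-fold difference was within reach for 62 microRNAs without correction and 34 with it, and a 1.5-fold difference for 28 and 0. Abundance was related to this only weakly, since the median was 1.64-fold for the 29 microRNAs of lowest mean CPM, 1.70-fold for the next 29 and 1.54-fold for the 29 of highest mean CPM. The erythroid microRNA miR-451a, among the most abundant, needed 2.72-fold, whereas miR-378c, with about 30 CPM, needed 1.31-fold. Of the 16 microRNAs with an unadjusted p under 0.05, 8 had a fitted change smaller than their own detectable size. The 12 libraries at 13.5 months and the 11 at 16.5 months, set against the same 12-month libraries, had a median detectable change of 1.51-fold each. Their standard errors had a median of 0.21, against 0.25 at 15 months.

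**Figure D5:**
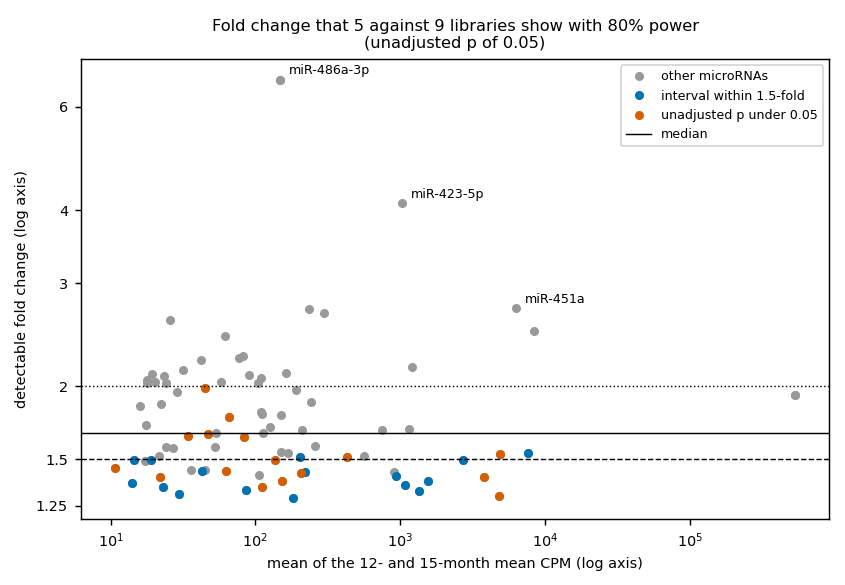
Fold change detectable with 80% power at an unadjusted p of 0.05 (vertical, log axis) against mean CPM (horizontal, log axis) for each of the 87 microRNAs, with the 16 of unadjusted p under 0.05 in orange, the 16 level ones in blue and the others in grey. The solid line is the median of 1.66-fold, dashed and dotted lines mark 1.5- and 2-fold, and miR-486a-3p and miR-423-5p lie highest at 6.68- and 4.11-fold. Sizes use the spread from the fit of all 37 libraries.

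By shared seed, 33 of the microRNAs with a known sequence fell into 12 families of at least 2 tested members. Of these families 4 had every member below 0 under all 5 scalings. These were the miR-16 (median log2 fold change -0.68), miR-103 (-0.50), miR-181 (-0.40) and miR-130 families (-0.21). The total count could not test this, since it moved the median of all tested microRNAs by -0.71. Under it every family but miR-146 had all members below 0. With the shift of -0.71 taken out, the medians of these 4 families were -0.63, -0.43, -0.32 and -0.18. The 4 members of the miR-181 family, which set the signalling threshold of lymphocytes, ran from -0.51 to -0.32, and only miR-181d-5p had an unadjusted p under 0.05. Families with every member above 0 were miR-146 (0.66), miR-25 (0.42), miR-125 (0.37) and miR-10 (0.30), of which all but miR-146 turned negative under total-count scaling. With the shift taken out their medians were 0.74, 0.44, 0.37 and 0.29. In miR-125, miR-10 and miR-146 no member had an unadjusted p under 0.05. let-7, miR-30, miR-26 and miR-148 were mixed, with medians between -0.15 and 0.00. Some members differ by a single base in their middle, such as miR-181d-5p and miR-181b-5p (U12C) or miR-30a-5p and miR-30e-5p (C13U). The study's methods allowed no mismatch in counting, so a read covering that base fits a single member of the pair. Where the base lies nearer the 3′ end, shorter reads can fit both, so the values may not be independent. Examples are miR-103-3p and miR-107-3p (G22C) and let-7c-5p and let-7a-5p (G19A). Sharing of reads was not tested.

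Within the marker lists of blood cell types the directions were mixed. Of 9 erythroid microRNAs 7 were tested, or 6 with the miR-486 copies counted once, and 1 was higher and 1 lower at an unadjusted p under 0.05, beside 18.4% of all 87. The median log2 fold change was 0.40 over the 7 and 0.27 over the 6, and turned to -0.35 and -0.47 under total-count scaling. The higher one was miR-25-3p and the lower one miR-16-5p, while miR-486a-5p had 0.66 (SE 0.33, 95% interval -0.01 to 1.33) and miR-451a -0.56 (SE 0.50). No myeloid (3 of 6 tested, median -0.11) or lymphoid member (5 of 6 tested, median 0.06) had an unadjusted p under 0.05, which in lists this short is near the share over all 87. miR-223-3p, the granulocyte microRNA, had 17.6 ± 5.79 CPM (SD, n = 5) against 26.8 ± 12.5 CPM (n = 9), with an interval of 0.427- to 1.03-fold. Summed levels overlapped between the ages in each list, from 476120 to 1054539 CPM at 15 months against 252087 to 853709 CPM for the 6 erythroid, 2227 to 3132 against 2639 to 3660.4 CPM for the myeloid, and 245 to 684 against 220.02 to 878 CPM for the lymphoid members. Fewer cells of a type and less RNA per cell cannot be told apart in such libraries.

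Lists of other tissues held microRNAs near 0 as well as abundant ones that blood is also known to carry. The liver microRNA miR-122-5p had at most 1 read in any of the 14 libraries, miR-1a-3p of muscle had none, and miR-124-3p of neurons had at most 1. miR-126a-3p of endothelium had at most 9 reads. None of the 7 muscle microRNAs could be tested, although miR-133a-3p had 9 to 277 reads. In the vascular list 1 of 8 was tested (miR-222-3p), in the neural list 1 of 8 (miR-128-3p) and in the liver and gut list 3 of 6, where miR-192-5p, miR-194-5p and miR-148a-3p had a median log2 fold change of 0.13 and 0 past an unadjusted p of 0.05. miR-192-5p was at 798 ± 253 CPM against 710.1 ± 197 CPM, with up to 17354 reads in a library. The part of other tissues in the results was not tested.

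The remaining family lists were counted in the same way. At an unadjusted p under 0.05, let-7 had 1 lower of 6 tested (9 members, median log2 fold change -0.15) and miR-30 had 0 of 5 tested (6 members, median -0.09), 2 of them level. The miR-16 family had 2 lower of 3 tested. In the miR-17 family miR-93-5p alone of 6 could be tested, and in the miR-25 family 2 of 6 were, with miR-25-3p higher. The 4 miR-181 members were all tested with 1 lower, and miR-103-3p and miR-107-3p were both lower. No member passed that p in the miR-23, miR-27 and miR-24 clusters (3 of 5 tested, median 0.22), miR-26 (2 of 2, -0.01), miR-29 (1 of 3, -0.41), miR-19 (1 of 2, -0.23) or miR-378 (2 of 4, -0.08). Across all 87, the background was 18.4% past that p.

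The study's 3 signature microRNAs were examined as members of this comparison. miR-146a-5p, a brake on inflammatory signalling, had 23.3, 54.3, 31.5, 30.9 and 58.1 CPM at 15 months and 8.14 to 74.4 CPM (median 16.7) at 12 months. All 5 libraries were above the 12-month median (log2 fold change 0.73, SE 0.38, adjusted p = 0.223). With 1 RUVs factor in edgeR its log2 fold change was 0.88 with an adjusted p of 0.0201, and over 30 settings the adjusted p ran from 0.00357 to 0.951, under 0.05 in 5. miR-181a-5p had 109, 88.8, 109, 80.5 and 76.5 CPM against 97.2 to 163 CPM (log2 fold change -0.34, SE 0.17, adjusted p = 0.220), and miR-148a-3p had 78.7 ± 24.3 against 84.7 ± 58.5 CPM (-0.11, SE 0.41). The sign of miR-148a-3p was not stable, since it became 0.21 with 1 RUVs factor and was negative in 21 of 30 settings. Their eigen expression, the first singular vector of the scaled log2(CPM + 1) values over the 14 libraries, averaged -0.09 ± 0.28 over the 9 libraries at 12 months and 0.16 ± 0.21 over the 5 at 15 months (SD) (exact permutation test over 2002 assignments, two-sided, p = 0.11, with 0.000999 as the lowest value it can give). A higher eigen expression was not a joint rise of the 3 microRNAs, of which 2 had negative log2 fold changes. At 15 months it was lowest in libraries 1 and 3 (-0.07 and -0.04), which had the most miR-181a-5p. It was highest in library 5 (0.41), which had the least. Of the 7 microRNAs from which the signature was drawn 6 were tested, with a median log2 fold change of 0.03, and none had an unadjusted p under 0.05. let-7b-5p was below the filter, at 11.9 ± 4.40 CPM against 13.9 ± 5.86 CPM.

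The other ages were compared with the same 12-month libraries, so their values can only be set beside these. For miR-25-3p the log2 fold changes were 0.49 (SE 0.11) at 13.5 months, 0.44 (SE 0.13) at 15 months and 0.41 (SE 0.11) at 16.5 months. For miR-103-3p they were 0.03 (SE 0.13), -0.59 (SE 0.16) and -0.56 (SE 0.13) at these ages, and for miR-15a-5p 0.09 (SE 0.19), -0.77 (SE 0.25) and -0.87 (SE 0.20). In contrast, miR-30c-5p stood at -0.87 (SE 0.13), -0.09 (SE 0.17) and 0.33 (SE 0.14), and miR-425-5p at -0.63 (SE 0.10), -0.17 (SE 0.13) and 0.37 (SE 0.10), beyond 1.5-fold at 13.5 months in both. Of the 16 level microRNAs, 3 were beyond 1.5-fold at 13.5 months, the other being miR-140-3p (-0.62), while miR-3074-5p had 0.01 (SE 0.12) and miR-30d-5p -0.14 (SE 0.11) there. miR-30a-5p had -0.71, 0.26 and 0.20, and miR-30b-5p -1.78, -0.30 (SE 0.30) and -0.59. Of the 87 tested in edgeR, 38 had an adjusted p under 0.05 at 13.5 months, 17 at 16.5 months and 0 at 15 months. The 15-month group had 5 libraries, against 12 at 13.5 and 11 at 16.5 months, and a larger median SE (0.25 against 0.21). At 15 months 7 microRNAs had adjusted p between 0.0513 and 0.0522, so these counts do not rank the ages by size of change. The differences between ages were not tested here.

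Below the filter, miR-3969 was the single microRNA with an adjusted p under 0.05 when microRNAs with more than 1 read in 50% of libraries were kept. It had 3.74, 5.21, 6.11, 7.94 and 6.98 CPM at 15 months. At 12 months, libraries 1 to 4 had 39.8, 40.1, 47.3 and 46.6 CPM and libraries 5 to 9 had 7.55, 8.81, 6.10, 11.2 and 8.26 CPM. The fitted log2 fold change of -1.90 (SE 0.40) therefore combined 4 libraries far above the 15-month range with 2 inside it and 3 just above it, and no label divides the 12-month libraries in this way. At the other ages it ran from 1.73 to 5.15 CPM (13.5 months) and from 149.7 to 257 CPM (16.5 months). What separates them was not tested.

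The number of microRNAs past the adjusted threshold differed between the fits tried, and the reason was not tested. The study's methods used factors for hidden confounders (RUVs), whose number they do not give. With 1, 2 or 3 such factors in edgeR the count was 16, 23 and 36. With 1 factor the median detectable change was 1.39-fold. The factors were computed from the spread of these same libraries within each age, so a smaller detectable size follows largely from how they are made. In a fit of the 14 libraries alone, without factors, the count was 9. There were 7 microRNAs past the threshold in each of edgeR with 1, 2 or 3 factors, DESeq2 with and without 1 factor, and the 14-library fit, namely miR-103-3p, miR-25-3p, miR-151-3p, miR-93-5p, miR-16-5p, miR-15a-5p and miR-22-3p. None of these 7 passed in the fit used above, with RLE or upper-quartile scaling, or with any single 15-month library left out. Over 30 settings, the number in which each of the 7 passed ran from 9 (miR-151-3p) to 14 (miR-103-3p). With 15-month libraries 1 and 3 left out, 0 had an adjusted p under 0.05 and 13 an unadjusted p under 0.05. The log2 fold change of miR-103-3p was then -0.47.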

How the data were processed

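The authors trimmed adapters with cutadapt and checked reads with FastQC 0.11.5. With miRDeep2 they mapped reads to mm10 at default settings and counted them on miRBase precursors without mismatches. They deposited whole-number counts per mature microRNA and precursor, not normalized (2241 rows), and a normalized signal table that the authors made from the first row of each microRNA times 1 factor per library. The first row was used for each of the 1915 microRNAs, also for the 115 with several, and 0 columns of per-sample values were left out. Library sizes were first-row totals. edgeR 4.0.16 in R 4.3.3 fitted 4 ages to all 37 libraries with TMM factors (biological coefficient of variation 0.405 over the 87 kept), and the contrast 15 minus 12 months was adjusted by Benjamini-Hochberg. SE is the log2 fold change over the square root of F, and detectable size is that SE times the sum of the t quantiles for p 0.05 and 80% power. The 87 hold 99.9% of first-row counts. Intervals reflect the spread between libraries, and PCR copies could not be removed. DESeq2 1.42.0, RUVs factors computed from their formula, other scalings, filters, summed rows and left-out libraries were alternatives. The eigen expression used a pseudocount of 1, and log2 ratios 0.5. Single values were tested with exact permutation tests in SciPy 1.17.1. The edgeR and permutation tests were tried on simulated data. The counts simulated for edgeR varied independently between microRNAs, unlike those of the libraries. That trial therefore does not check the intervals, detectable sizes or adjusted p-values given here. No 2 libraries of an age were near-identical (46 pairs, smallest chi-square per degree of freedom 117). Precursor positions came from GENCODE vM21 (GRCm38, equal to mm10). The text names microRNAs with an unadjusted p under 0.05, the 10 narrowest intervals among those within 1.5-fold, the 5 widest of all, members of marker and family lists, and 5 named by an earlier report. Members and lists were chosen with earlier results of these data known, and the pairs of neighbouring precursors and 2 alternatives were added after seeing the values.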

Additional observations from a re-analysis of the deposited data

Results flagged for a closer look

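There were 48 groups of libraries (each named microRNA at each age) examined for a single value far from the rest, and 2 stood out, where chance gives about 5% of groups. Both were in library 1 at 12 months. In that library miR-146a-5p stood at 74.4 CPM, above the next library by 0.695 of the range of all 9. miR-25-3p stood at 5546 CPM there, above the next by 0.596 of the range. Without that library, 3 microRNAs had an adjusted p under 0.05 in edgeR at 15 against 12 months.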

How the results depend on the processing

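No count of microRNAs past the adjusted threshold is firm here, because 7 microRNAs had adjusted p between 0.0513 and 0.0522. It was 0 with RLE or upper-quartile scaling and with 15-month libraries 1 and 3 left out, 1 without a filter or with more than 1 read in 50%, 5 without miR-486 or with rows summed, 8 with DESeq2, 9 with the 14 libraries only, 18 with the total count only, 19 with DESeq2 and 1 RUVs factor, 28 with the 14 libraries and 1 RUVs factor (chosen after seeing the data), and 16, 23 and 36 with 1, 2 and 3 RUVs factors. Over the 14 possible TMM reference libraries it ran from 0 to 8. Leaving out each library gave 0 to 7, with 3, 7, 2 and 4 without 12-month libraries 1, 5, 6 and 9 and 0 without any other. The count at an unadjusted p under 0.05 was 33, 38 and 41 with 1, 2 and 3 RUVs factors, 32 with DESeq2 and 1 factor, 36 with the total count, 59 without a filter, 37 with more than 1 read, 37 with the 14 libraries and 1 factor, and 12 to 20 without each library. The number level within 1.5-fold was 36, 41 and 43 with the factors, 33 with DESeq2 and 1 factor, 3 with the total count, 6 with the upper quartile, 9 without a filter, 41 with the 14 libraries and 1 factor, 10 with libraries 1 and 3 left out and 10 to 19 without each library, with 10 without 15-month library 4. The median detectable log2 fold change was 0.47, 0.44 and 0.41 with the factors, 0.47 with DESeq2 and 1 factor, 0.44 with the 14 libraries and 1 factor, 2.08 without a filter and 1.19 with more than 1 read. The median log2 fold change was -0.66 with the total count, under which miR-128-3p (-0.32), miR-151-3p (-0.017), miR-182-5p (-0.041) and miR-25-3p (-0.20) reversed and the eigen expression difference became -0.19. The causes were not tested.

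Same-numbered libraries did not deviate together (correlations from -0.826 to 0.612 over 5 numbers), so the numbers were not taken as pairs. With the replicate block, 0 microRNAs passed the adjusted threshold and 20 an unadjusted p under 0.05. The paired difference in the share of counts outside miR-486 was -4.66 percentage points (exact sign permutation test, p = 0.19, smallest possible 0.0625).

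Of the 87 intervals, 31 still reach a 2-fold difference. The median detectable change was 1.64-, 1.70- and 1.54-fold for the 29 microRNAs each of lowest, middle and highest mean CPM. Whether depth sets these limits was not tested.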
